A study of Mus musculus with 2 samples.

Results

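The 6 genes described here are the mouse paralog clusters of miR-23, miR-27 and miR-24: Mir23a, Mir27a and Mir24-2 on chromosome 8, and Mir23b, Mir27b and Mir24-1 on chromosome 13. They were chosen by gene symbol, not by a measured value, though with earlier results of these data known. They are 6 of the 2202 microRNA genes counted. MicroRNAs were sequenced from gastrocnemius, the large calf muscle, of 2-month-old male B6CASTF1/J mice. These are hybrids with a C57BL/6J and a CAST/EiJ parent, the latter being wild-derived, so they carry an allele from either strain at each autosomal locus. No treatment or genotype contrast is labelled, and the series holds 1 group with 2 libraries, biological replicates 1 and 2. The labels assign them to separate tissue samples of differently numbered males under 1 shared donor identifier. What can be compared is therefore the genes with each other and 1 library with the other.

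MicroRNAs are short RNAs cut from hairpins and loaded into Argonaute proteins, where the seed, bases 2 to 8 from the 5′ end, selects messenger RNAs for repression. Each of these clusters is known to be transcribed as 1 primary RNA that yields a miR-23, a miR-27 and a miR-24 hairpin, and mammals carry the cluster in duplicate. In muscle, miR-23a is known for repressing the ubiquitin ligases Fbxo32 and Trim63 of muscle atrophy, miR-27 for repressing Pax3 and myostatin, and miR-24 for promoting myoblast differentiation. In endothelium, miR-23 and miR-27 are known for their part in vessel sprouting.

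The mature arms are shown first because the likeness of the copies decides which reads can be counted for which gene. Sequences are from RefSeq on GRCm38.p6, 5′ to 3′, with the seed in capitals, and all lie on the plus strand. All 6 genes matched the RefSeq table, with 11 mature entries and 10 distinct sequences. The 3p arms, cut from the 3′ side of the hairpin, were as follows, and miR-23b-3p is named only.
miR-23a-3p: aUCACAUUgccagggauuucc
miR-27a-3p: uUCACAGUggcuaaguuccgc
miR-27b-3p: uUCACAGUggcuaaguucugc
miR-24-3p: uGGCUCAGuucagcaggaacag
These 3p arms lie at chr8:84208563-84208583 (miR-23a-3p), chr8:84208727-84208747 (miR-27a-3p), chr13:63300760-63300780 (miR-27b-3p), and both chr8:84208875-84208896 and chr13:63301251-63301272 (miR-24-3p). The 5p arms of the same hairpins were less alike between the clusters.
miR-23a-5p: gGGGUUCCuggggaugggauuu
miR-23b-5p: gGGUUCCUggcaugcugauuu
miR-27a-5p: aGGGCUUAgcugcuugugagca
miR-27b-5p: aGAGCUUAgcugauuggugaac
miR-24-2-5p: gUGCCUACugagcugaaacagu
miR-24-1-5p: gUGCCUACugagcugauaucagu
On chromosome 8 the 5p arms lie at chr8:84208527-84208548 (miR-23a-5p), chr8:84208685-84208706 (miR-27a-5p) and chr8:84208839-84208860 (miR-24-2-5p). On chromosome 13 they lie at chr13:63300492-63300512 (miR-23b-5p), chr13:63300718-63300739 (miR-27b-5p) and chr13:63301213-63301235 (miR-24-1-5p).

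The seed of miR-27a-3p and miR-27b-3p was the same, UCACAGU, and no other gene of the table had it. With positions counted from 1 at the 5′ end and miR-27a-3p written first, the only difference between these arms was C19U. The seed of miR-24-3p, GGCUCAG, was shared with 4 further genes, Mir5124b, Mir6369, Mir6410 and Mir6413, which had 0 CPM in both libraries. The miR-24-3p sequence stood whole in both Mir24-2 and Mir24-1. Its 5p partners also shared a seed, UGCCUAC, and were identical over their first 16 bases. The seed of miR-23a-3p, UCACAUU, lies in the first 18 bases of that arm, which stood without mismatch in the Mir23b hairpin. The 5p arms of miR-23 had different seeds in the 2 clusters, GGGUUCC for miR-23a-5p and GGUUCCU for miR-23b-5p. Those of miR-27 differed too, with GGGCUUA for miR-27a-5p and GAGCUUA for miR-27b-5p.

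The longest identical stretch was 20 bases between the Mir23a and Mir23b hairpins, and also 20 bases between those of Mir27a and Mir27b. In both pairs it covered the first 18 bases of the 3p arm. Between Mir24-2 and Mir24-1 the stretch was 28 bases and covered all 22 bases of miR-24-3p. Of the 20-base windows of each hairpin, 1 of 56 in Mir23a, 1 of 55 in Mir23b, 1 of 68 in Mir27a and 1 of 54 in Mir27b stood without mismatch in another mouse hairpin. For Mir24-2 the number was 9 of 88, and for Mir24-1 it was 9 of 49. Each of these matches was to the paralog. With 1 mismatch allowed, the numbers were 6 for Mir23a and Mir23b, 5 for Mir27a and Mir27b, and 12 for Mir24-2 and Mir24-1. Extending the 3p arm by the next 2 bases of the hairpin gave 2 mismatches to the paralog for miR-23a-3p and for miR-27a-3p, and 0 for miR-24-3p. A complete miR-24-3p read therefore cannot be placed at 1 of the 2 genes, whereas a complete miR-23 or miR-27 read differs from its paralog near its 3′ end.

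**Figure D1:**
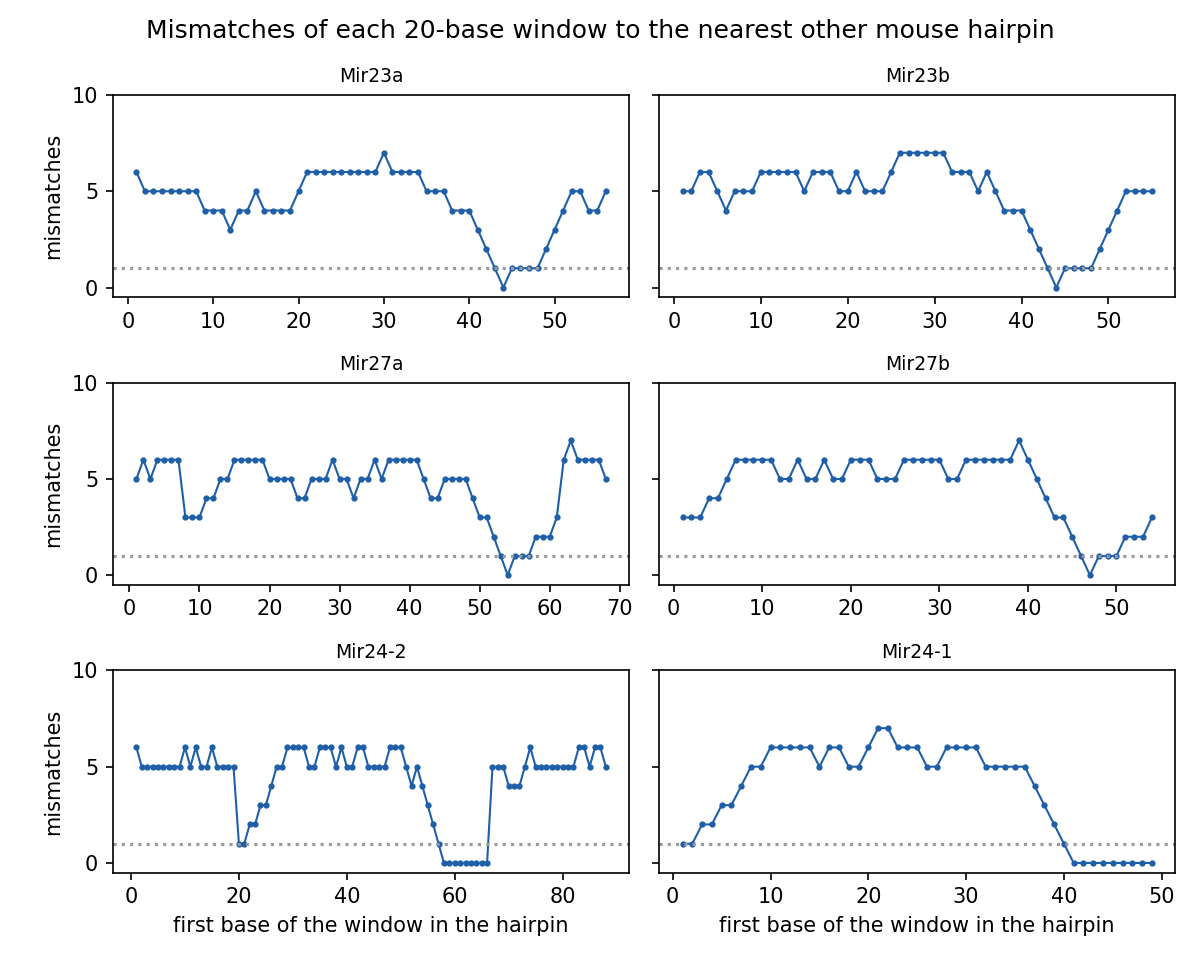
Mismatches (vertical axis) of each 20-base window of the 6 hairpins to the nearest other mouse hairpin of the RefSeq table, by the first base of the window in the hairpin (horizontal axis). The dotted line marks 1 mismatch. Mir23a, Mir23b, Mir27a and Mir27b touch 0 in 1 window each, and Mir24-2 and Mir24-1 stay at 0 over 9 windows.

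In mm10 with the GENCODE M21 annotation, the chromosome 8 cluster spans 404 bases. Mir23a (ENSMUSG00000065611.1) lies at 84208518 to 84208592, Mir27a (ENSMUSG00000065444.1) at 84208672 to 84208758 and Mir24-2 (ENSMUSG00000065541.1) at 84208815 to 84208921, all on the plus strand. Mir23a and Mir27a overlap no other annotated gene. Mir24-2 shares its last 2 bases with an exon of the long noncoding RNA Gm26532 on the same strand, and 83 bases with the microRNA gene Mir3074-2 on the minus strand. The chromosome 13 cluster spans 792 bases on the plus strand. Mir23b (ENSMUSG00000065599.2) lies at 63300484 to 63300557, Mir27b (ENSMUSG00000065475.2) at 63300712 to 63300784 and Mir24-1 (ENSMUSG00000105904.1) at 63301208 to 63301275. All 3 lie within 2010111I01Rik, which RefSeq names Aopep, a gene for an aminopeptidase, on the same strand. Mir23b is intronic there, Mir27b falls in an exon of a transcript annotated for nonsense-mediated decay, and Mir24-1 in exons of noncoding and decay transcripts. The whole cluster is antisense to an intron of Fancc, a Fanconi anaemia gene, and Mir24-1 lies entirely within Mir3074-1 of the minus strand. The genes stand closer on chromosome 8, with 79 and 56 bases between neighbours, than on chromosome 13, with 154 and 423.

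Replicate 1 held 638779 same-strand counts over all microRNA genes and replicate 2 held 2272132. Levels are given as counts per 1000000 of that total (CPM), not divided by gene length, because 1 read covers a whole mature microRNA. Reads that matched several places were 75.2% and 74.4% of all reads and are in no gene's count, so every level below counts only the reads that were placed at 1 gene. The labelled tissue was checked with 9 striated muscle genes, all above 0 in both libraries, which summed to 22884 and 52158 CPM. Mir206, restricted to skeletal muscle, gave most of that sum with 20325 and 48078 CPM, while 7 epithelial genes summed to 225 and 215 CPM. Mir499, Mir486, Mir208b and Mir1a-2 had means from 1301 down to 265 CPM. Mir133b, Mir133a-1, Mir1a-1 and Mir133a-2 had means from 16.9 down to 7.12 CPM, below the epithelial Mir203 at 172. The Mir1a and Mir133a genes are pairs, and any read matching both copies of a pair is missing from these levels. Their place below Mir203 is thus one of assigned counts and no measure of the mature microRNAs. The check thus rests largely on Mir206. Because the tissue was sequenced in bulk, fewer cells of a type and less RNA per cell cannot be told apart.

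The miR-23 genes held nearly all the assigned counts of the clusters. Mir23a had 55736 CPM in replicate 1 and 60529 in replicate 2 (58132 ± 3389, SD, n = 2), and was the 4th most abundant of the 2202 genes in both libraries. Mir23b, its copy, had 49380 and 51141 CPM (50261 ± 1245) and ranked 5 in both. Both libraries put Mir23a above Mir23b, and the ranges of the 2 genes did not overlap. Mirlet7g, a let-7 gene and the next in rank, had 44393 and 45722 CPM, below the lower Mir23b value. Mir143, a smooth muscle microRNA and the next above Mir23a, had 120222 and 79407. Together the miR-23 genes held 10.8% ± 0.463 of all assigned microRNA counts (SD, n = 2), and the 6 genes 11.5% ± 0.416.

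The miR-27 genes were lower, and here the chromosome 13 copy led. Mir27b had 4898 CPM in replicate 1 and 4449 in replicate 2 (4674 ± 318, SD, n = 2), at rank 33 by mean. Mir27a had 1306 and 1205 CPM (1256 ± 70.8), at rank 54. The ranges of Mir27a and Mir27b lay far apart in both libraries. In the order of all genes, neither was separate from its neighbour above: Mir451a, an erythroid microRNA, had 5465 and 4110 CPM around the Mir27b values. Mir101a, with 1569 and 963 CPM, and Mir17, with 1360 and 1125, likewise enclosed the Mir27a values. Below Mir27b stood Mir744, with 3918 and 2423 CPM and no overlap.

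The miR-24 genes had the fewest assigned counts. Mir24-2 had 283 counts in replicate 1 and 712 in replicate 2, or 443 and 313 CPM (378 ± 91.7, SD, n = 2). Mir24-1 had 28 and 117 counts, or 43.8 and 51.5 CPM (47.7 ± 5.42). Counting error alone left Mir24-1 between 29.1 and 63.4 CPM in replicate 1 and between 42.6 and 61.7 in replicate 2 (exact Clopper-Pearson 95% intervals), the widest of the 6 relative to the level. Between the libraries Mir24-2 varied more, with a coefficient of variation of 24.2% against 11.4% for Mir24-1. Neither gene was separate from its neighbours in rank, Mir148a and Mir30b for Mir24-2, and Mir224 and Mir421 for Mir24-1. Since miR-24-3p stands whole in both hairpins, these values are no measure of miR-24-3p, and the files do not give the arm from which the counts come.

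**Figure D2:**
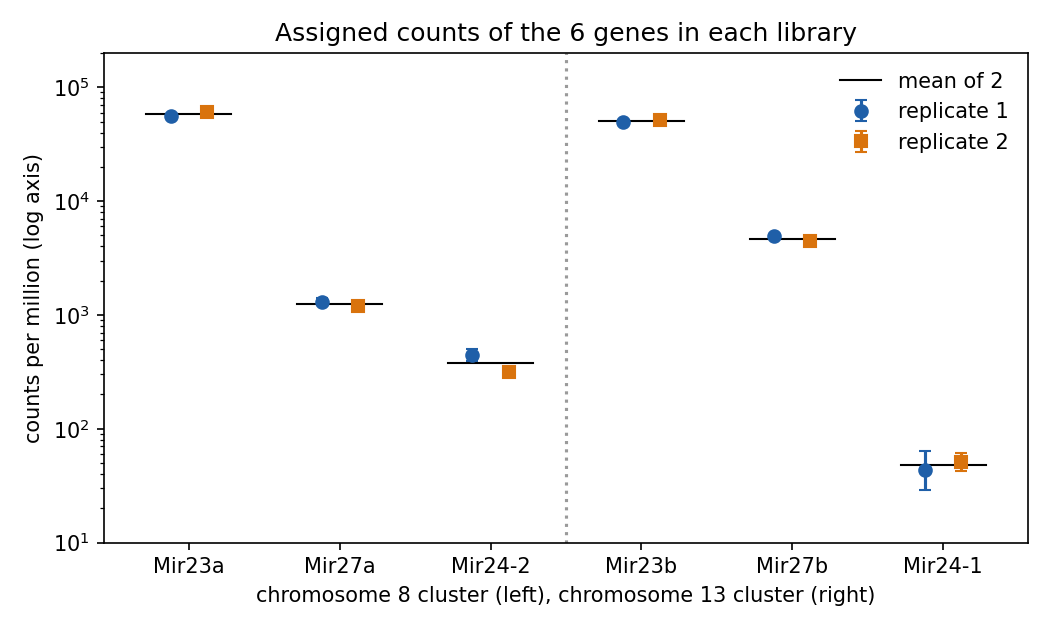
CPM on a log axis for the 6 genes in each library, with exact 95% intervals of counting error as bars on the points and the mean of both libraries as a horizontal line. In both clusters the miR-23 gene is highest and the miR-24 gene lowest, and Mir27b stands above Mir27a while Mir24-2 stands above Mir24-1.

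The share of the chromosome 8 copy differed widely between the pairs, and in both libraries it was largest for miR-24 and smallest for miR-27. Mir23a made up 53.0% of the counts of Mir23a and Mir23b in replicate 1 (exact Clopper-Pearson 95% interval 52.6 to 53.4%) and 54.2% in replicate 2 (54.0 to 54.4%). The copies of miR-23 were thus nearly even, with Mir23a at 1.13 and 1.18 times Mir23b. For miR-27 the chromosome 8 copy was in the minority, with Mir27a at 21.04% (19.8 to 22.3%) and 21.32% (20.6 to 22.04%). Mir27b had 3.75 times the counts of Mir27a in replicate 1 (interval 3.47 to 4.05) and 3.69 times in replicate 2 (3.54 to 3.85). For miR-24 it was in the majority, with Mir24-2 at 91.0% (87.3 to 93.9%) and 85.9% (83.3 to 88.2%) of the pair. Mir24-2 had 10.1 times the counts of Mir24-1 in replicate 1 (interval 6.84 to 15.5) and 6.09 times in replicate 2 (5.00 to 7.46). The intervals of the 2 libraries overlapped for miR-27 and miR-24 and did not for miR-23, where the counts are largest. Intervals cover counting error only, and reads matching both copies are missing from every share.

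**Figure D3:**
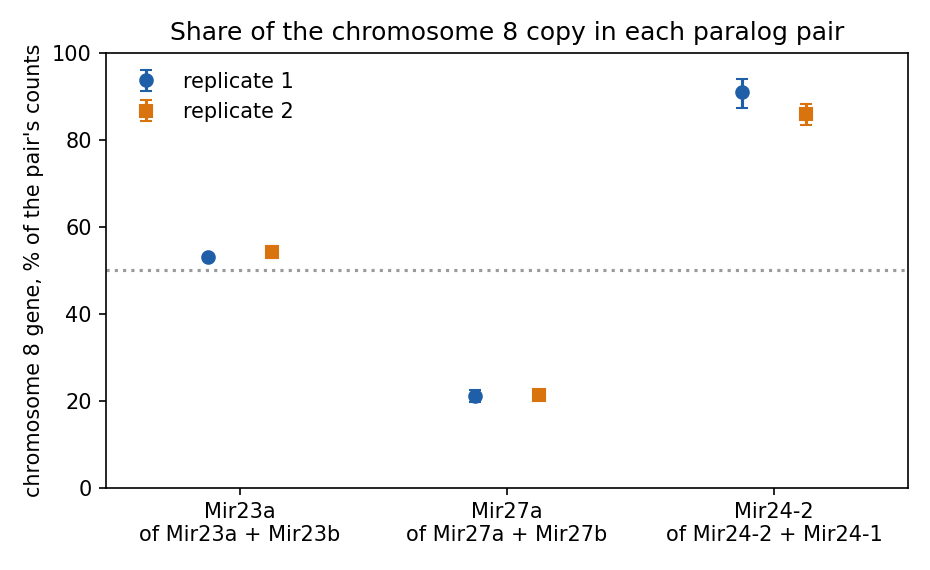
Share of each pair's counts that fell on the chromosome 8 gene, in percent, in replicate 1 (circles) and replicate 2 (squares), with exact 95% intervals of counting error. The dotted line marks equal counts of both copies. Mir23a lies just above it at 53.0 and 54.2%, Mir27a below it at 21.04 and 21.32%, and Mir24-2 above it at 91.0 and 85.9%.

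Within the clusters, the gene at the 5′ end gave most of the counts on both chromosomes. Mir23a gave 97.0% of the chromosome 8 cluster in replicate 1 and 97.6% in replicate 2. Mir27a gave 2.27 and 1.94% of it, and Mir24-2 gave 0.771 and 0.505%. On chromosome 13, Mir23b gave 90.9 and 91.9%, Mir27b 9.02 and 7.996%, and Mir24-1 0.0807 and 0.0925%. Of assigned counts, the miR-27 share was therefore larger in the chromosome 13 cluster and the miR-24 share larger in the chromosome 8 cluster, in both libraries. Complete miR-24-3p reads match both clusters and are missing from these shares and from the sums that follow. Summed, the clusters were nearly equal, at 57485 and 62047 CPM on chromosome 8 (59766 ± 3226, SD, n = 2) and 54322 and 55642 on chromosome 13 (54982 ± 933). The chromosome 8 cluster held 51.4 and 52.7% of the counts of the 6 genes.

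Other pairs of related microRNA genes were set beside these, grouped by the fewest base changes that turn an arm of 1 gene into a stretch of the other hairpin. Of 15 such pairs, 13 had sequences in the table. The 6 other pairs with an identical arm summed to between 12.8 CPM (Mir199a-1 and Mir199a-2) and 1327 CPM (Mir128-1 and Mir128-2), and Mir24-2 with Mir24-1 summed to 426 ± 86.3. The 2 other pairs that were 1 base apart summed to 17318 CPM (Mir10a and Mir10b) and 45531 CPM (Mir99a and Mir100). Of the cluster pairs that are 1 base apart, Mir27a with Mir27b stood below both at 5929 ± 388 CPM and Mir23a with Mir23b above both at 108393 ± 4634. The 5 pairs that were 2 or more bases apart, of which Mir106b with Mir93 and Mir221 with Mir222 lie in 1 cluster each rather than at separate loci, summed to between 244 and 2768 CPM. The miR-23 and miR-27 pairs fall in the same class although their sums differ, and the cause of that difference was not tested.

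**Figure D4:**
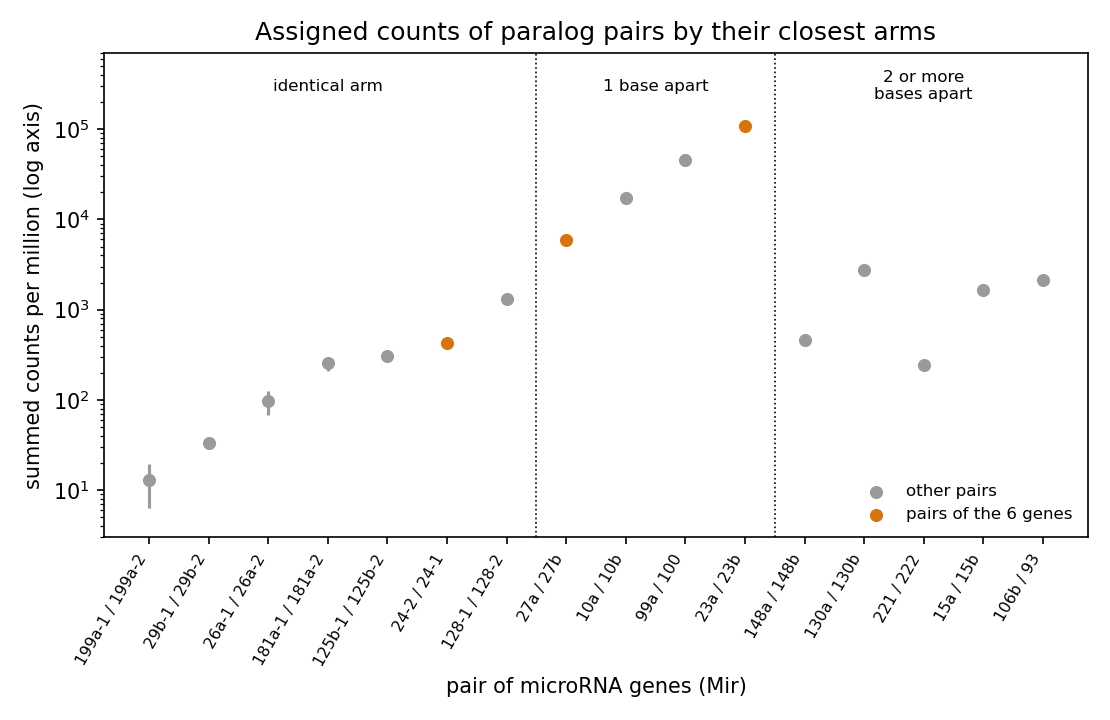
Summed CPM (log axis) of 16 pairs of microRNA genes, ordered by how many bases separate their closest arms, with a dot at the mean and a line from 1 library to the other. The pairs of the 6 genes are orange: the miR-24 pair lies at 426 CPM among the pairs with an identical arm, and the miR-27 and miR-23 pairs at 5929 and 108393 CPM among those 1 base apart.

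The strand opposite the miR-24 genes carries annotated microRNA genes, and the 2 loci differed in the reads assigned there. At Mir24-2 no read was assigned to the opposite strand, 0 of 283 in replicate 1 and 0 of 712 in replicate 2. This allows a share of up to 1.06 and 0.421% of assigned reads. Mir3074-2, annotated on that strand, accordingly had 0 counts. At Mir24-1 the opposite strand held 2 of 30 reads in replicate 1 (6.67%, exact Clopper-Pearson 95% interval 0.818 to 22.1%) and 23 of 140 in replicate 2 (16.4%, 10.7 to 23.6%). The count of Mir3074-1 was the same 2 and 23. The mature miR-3074-5p sequence is identical at both loci, so a complete read of it cannot be placed at either locus alone. These counts and limits leave such reads out and do not show which locus gives miR-3074-5p. When strand was ignored, Mir24-2 and Mir24-1 had 0 counts in both libraries, and reads over genes annotated on both strands stand among the ambiguous reads of that column. Mir23a, Mir27a, Mir23b and Mir27b had 0 opposite-strand counts and identical counts with and without regard to strand.

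Between the 2 libraries, Mir23a was slightly higher in replicate 2, Mir27b and Mir24-2 were lower, and Mir23b was higher or level depending on the scaling. Differences were tested against counting error with an exact two-sided binomial test over the 311 genes with 10 or more counts, with Benjamini-Hochberg adjustment at 0.05, of which 40.5% passed. Such a test compares 2 libraries, not conditions, and its p-values measure counting error alone and say nothing of the spread between mice. Among the 6 genes 4 passed, 2 higher in replicate 2 (background 23.2%) and 2 lower (17.4%). Of the 59 genes with a mean of 1000 CPM or more, to which 4 of the 6 belong, 81.4% passed, so at this depth even a small difference can pass.

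Mir23a was 1.09-fold higher in replicate 2 (interval of counting error 1.07 to 1.10, adjusted p = 2.84e-43, exact binomial test). Mir23b was 1.04-fold higher (1.02 to 1.05, adjusted p = 1.90e-07, exact binomial test), but with TMM scaling its log2 ratio turned from 0.051 to -0.0097 and did not pass (adjusted p = 0.457). Over all alternatives its adjusted p lay between 3.13e-10 and 1 (exact binomial test and edgeR). Mir27b was lower in replicate 2, at 0.908-fold (0.872 to 0.946, adjusted p = 1.52e-05, exact binomial test). Mir27a stood at 0.923-fold (0.854 to 0.999) and did not pass, with an adjusted p of 0.101 in the exact test, but passed as lower with TMM scaling (adjusted p = 0.00762, the lowest of its alternatives, which reached 1). Mir24-2 was lower at 0.707-fold (0.615 to 0.815, adjusted p = 7.99e-06, exact binomial test). Mir24-1 had a ratio of 1.17 with an interval of 0.772 to 1.84 and did not pass. TMM moved the log2 ratios of all genes by -0.06, and 4 of the 6 genes then passed (background 38.9%), 1 higher (18.3%) and 3 lower (20.6%).

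The median absolute log2 ratio was 0.13 over the 6 genes and 0.39 over all 311 tested, and it was 0.23 over the 59 abundant genes. An exact test in edgeR whose common dispersion was taken from the spread of the 2 libraries called 0 of the 6 genes, each with an adjusted p of 1, and 0 of the 6 had an unadjusted p under 0.05. Over all 311 genes it called 2 (0.643%), 1 higher (0.322%) and 1 lower (0.322%), with 20 at an unadjusted p under 0.05. Its noise estimate comes from the very difference that it tests. Markers of other cells also differed between the libraries, by the exact binomial test, by which 23.2% of all tested genes were higher and 17.4% lower. Of the endothelial genes Mir126a and Mir126b, Mir126a was higher in replicate 2 and their sum went from 81286 to 129798 CPM, with Mir126b at 0 counts in replicate 1. Both smooth muscle genes, Mir143 and Mir145a, were lower, from a sum of 123068 to 81451 CPM, and so were both erythroid genes, Mir451a and Mir144, from 6176 to 4688. Of 4 leukocyte genes 2 were higher and 1 lower, with sums of 2542 and 2889 CPM, and 4 of the 9 striated muscle genes were higher. Of 7 epithelial genes 5 were tested, and 1 of them, Mir200c, was lower. Their part in the differences of the 6 genes was not tested.

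**Figure D5:**
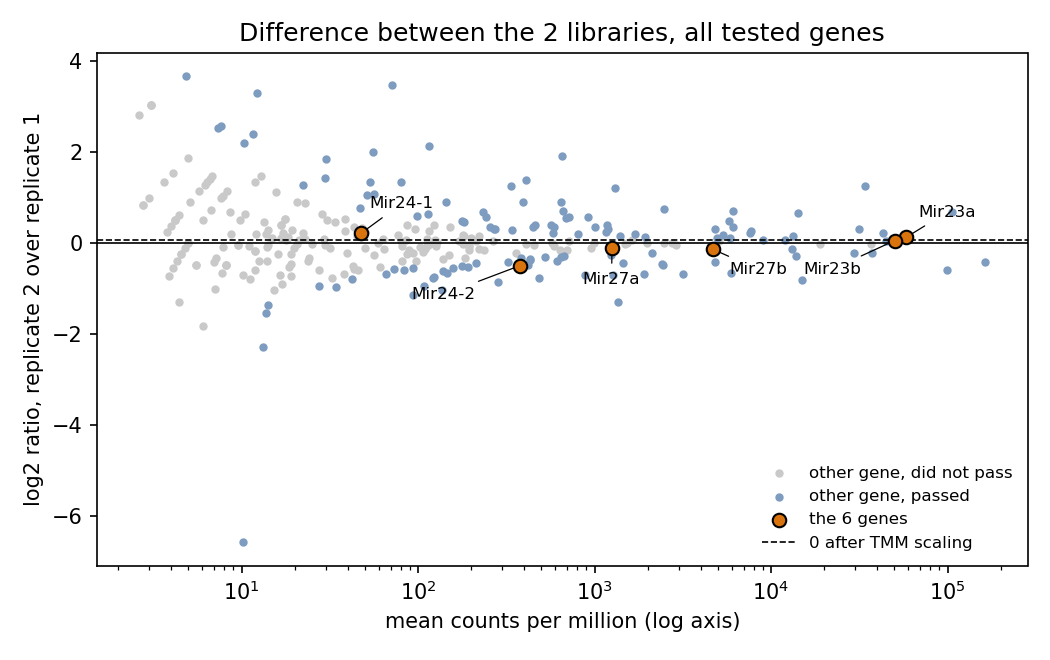
Log2 ratio of replicate 2 over replicate 1 (vertical axis) against mean CPM (log horizontal axis) for the 311 tested genes. The 6 genes are orange, with ratios from -0.50 (Mir24-2) to 0.21 (Mir24-1). The solid line marks equal levels by library totals and the dashed line equal levels after TMM scaling, and Mir23b lies between the 2 lines.

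The genes most like the miR-23 genes were sought among those with 0.5 to 2 times their mean level, by the absolute difference between log2 ratios of the 2 libraries. For Mir23a, the nearest of 10 candidates was Mir23b, at a difference of 0.068, followed by Mirlet7g at 0.076 and Mir26b at 0.093. For Mir23b, the nearest of 9 was Mirlet7g at 0.0080, followed by Mirlet7i and Mir23a, both at 0.068. With 2 libraries each likeness rests on 1 ratio per gene.

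Genes with related roles were described from lists, which were chosen with earlier results of these data known, so their counts are a description only. Of 11 microRNAs linked to angiogenesis, 8 were tested and 3 were higher in replicate 2, namely Mir126a, Mir132 and Mir92-1, and none was lower, where 23.2% of all tested genes were higher and 17.4% lower. The median log2 ratio of those 8 was 0.39, against 0.039 over all tested genes and -0.033 over the 6 genes. Mir130a, which restrains antiangiogenic homeobox genes, had 2752 and 2749 CPM, between the levels of Mir27b and Mir27a. Of 17 microRNAs of muscle mass and differentiation, 7 were higher (background 23.2%) and none lower (17.4%), with a median log2 ratio of 0.063. With TMM scaling 6 were higher (background 18.3%) and none lower (20.6%). Those higher included Mir206 (20325 and 48078 CPM), Mir499 (784 and 1819) and Mir486 (889 and 1133). Mir322, which ranks after Mir206 in this list, was higher with 8806 and 9198 CPM by library totals and did not pass with TMM scaling. In both libraries Mir23a and Mir23b each had more assigned counts than any gene of the muscle list. That list holds Mir26a-1 with Mir26a-2 and Mir29b-1 with Mir29b-2, pairs with an identical arm whose shared reads are not counted. The Mir1a and Mir133a pairs, also in the list, had no sequences to compare among the RefSeq entries used, so reads shared by their copies may be missing too. The order is therefore one of assigned counts and no ranking of the mature microRNAs.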

How the data were processed

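Libraries of RNA under 30 nt, per the labels, came from 2 gastrocnemius samples of 1 group. The deposited tables hold raw counts per microRNA gene on mm10 with GENCODE M21, per the texts deposited with them, and no source used here gives the aligner or the counter. Of the 3 count columns, read from the values as unstranded, same strand and opposite strand, the same-strand column was used. Totals leave out the reads with no gene: unmapped (5.97 and 6.93% of reads), multi-mapping (75.2 and 74.4%) and no feature (1.62 and 2.48%).

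Counts were turned into CPM of the gene total. Limits for a count of 0 use 3 counts (4.70 and 1.32 CPM). No molecular identifiers are named in the labels, and reads may be copies of 1 molecule, so intervals and limits reflect counting error alone. Log2 ratios used a prior count of 0.5. The binomial step was tested on counts simulated with counting error only, so that check does not cover the spread between libraries. Windows and arms were compared by script with all hairpins of the RefSeq table, and 1018 of 2201 symbols had a mature arm there. The genome outside annotated hairpins and the CAST alleles were not analysed here.

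Named genes are the 6 members, genes overlapping them on the other strand, their neighbours in rank, the 3 nearest in ratio, and genes of the lists. Members and lists were chosen with earlier results of these data known. Alternatives were other scalings, columns, filters, prior counts, denominators and a left-out library. Software was Python 3.11.15, scipy 1.17.1, edlib 1.3.9, R 4.3.3, edgeR 4.0.16 and DESeq2 1.42.0.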

Additional observations from a re-analysis of the deposited data

Results flagged for a closer look

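Mir24-1 had 23 counts on its opposite strand in replicate 2, where a count of 0 would allow up to 3. For Mir24-1 that column lies outside the main measurement, but the same-strand count of Mir3074-1, annotated on that strand, was also 23. Replicate 1 had 2 such counts. There are no control samples, and the origin of these reads was not tested.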

How the results depend on the processing

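With 2 libraries of 1 group, differences between the mice cannot be told apart from differences between library preparations, and reads shared by paralogs are missing under every alternative. With unstranded counts the total over genes was smaller and the mean levels were 83024 CPM for Mir23a, 71782 for Mir23b, 6675 for Mir27b, 1793 for Mir27a, and 0 for Mir24-2 and Mir24-1. Per 1000000 reads of any kind they were 9686, 8381, 781, 210, 63.5 and 7.93 in the same order. Unstranded counts also put Mir23a at 97.9% of its cluster and Mir24-2 and Mir24-1 at 0% of theirs, and gave no value for the share within the miR-24 pair or for the differences of its genes. TMM scaling turned the Mir23b log2 ratio to -0.0097 (adjusted p = 0.457, edgeR factors with the exact binomial test) and brought Mir27a past the threshold at -0.18. With the exact test of edgeR the log2 ratios of Mir23a (0.12), Mir23b (0.051), Mir27b (-0.14) and Mir24-2 (-0.50) no longer passed, and the count over all genes was 2, of which 1 was higher and 1 lower. The other 34 alternative values for the differences, 24 for the levels, 21 for the cluster shares and 8 for the pair shares, kept their direction and call or moved by less than 1 SD. For the levels and shares these include each library left out, which with 2 libraries lies within 1 SD of the mean by construction. In windows of 18 bases, 3 stood without mismatch in the paralog for each miR-23 and miR-27 gene, and in windows of 22 bases 0 did, against 11 and 7 for each miR-24 gene.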

Other observations

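Across the table, 93 of the 1018 genes with a mature arm among the RefSeq entries used had an arm that stands whole in another hairpin. They held 1.20% of assigned counts in replicate 1 and 1.40% in replicate 2, and 38 of them reached 10 counts over both libraries. The other 925 genes held 65.4 and 74.3%, and 240 reached 10 counts. The remaining assigned counts lie on genes without a mature arm among the RefSeq entries used, which were not classed. Mir23b was classed by miR-23b-5p alone, since those entries lack miR-23b-3p. Mir24-2 and Mir24-1 belong to the 93.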
